A study of Mus musculus with 20 samples.

Results

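The interleukin-6 family is a group of cytokines that share the signalling receptor gp130, and 10 of its genes were followed here in the medial prefrontal cortex of mice injected there with CDS or PBS. They were picked by symbol as ligands (Lif, Clcf1, Cntf), receptors (Lifr, Osmr, Il6st, Cntfr) and the STAT3 arm (Jak2, Stat3, Socs3). All 10 were among the 20375 genes listed at both times. The choice was made with earlier results of these data known, so the values below describe these genes and give no independent support for a change in the family.

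RNA came from C57BL/6 mice in 4 groups of 5 samples. At postnatal day 47 (6 weeks of age), 5 days after the injection (5 dpi), PBS and CDS samples were compared, and at postnatal day 84 (12 weeks of age), 6 weeks after it, PBS and CDS samples were compared again. Control mice received an injection into the same region, with PBS. The labels do not spell out CDS, the series title calls the work a microglia depletion model, and the labels do not say whether numbered samples were separate animals, so any p reflects only how these samples varied, which may be technical. For each gene the authors deposited how CDS differed from PBS, as a log2 fold change and a q-value (a p adjusted over genes), without per-sample values or expression levels. The depth per sample is therefore unknown, and the labelled tissue could not be checked by its markers' levels. Errors given here are standard errors implied by the fold change and its q.

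In this pathway a ligand brings receptor chains together, and the Janus kinases bound to them phosphorylate the transcription factor STAT3, which enters the nucleus. LIF acts through the LIF receptor and gp130, which Il6st encodes. CNTF and CLCF1 use these chains together with the CNTF receptor, and oncostatin M in the mouse acts mainly through its own receptor, OSMR, with gp130. SOCS3 is induced by STAT3 and binds gp130 to shut the signal off. In the brain the pathway is known for driving the reactive state of astrocytes, in which the filament protein GFAP accumulates. STAT3 and the kinases are switched on by phosphorylation, which RNA does not measure.

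Sequence before the start sites is given for the ligand whose values at the 2 times lay on opposite sides of 0, and for the gene that held the one STAT motif found. RefSeq windows of GRCm38.p6 matched 9 of the 10 genes by symbol, and Clcf1 was not matched. The motif searched was TTCNNNGAA, a pattern that reads the same on both strands, in the 250 bases before each start. It occurred in 1 of 15 windows and 1 of 9 genes, Socs3, against 7.02% of all 32851 windows in the table. The Lif window (chr11:4257318-4257567, plus strand) held no match and is shown whole, and the Socs3 stretch (chr11:117969502-117969530, minus strand) is shown with the match in capitals:
Lif: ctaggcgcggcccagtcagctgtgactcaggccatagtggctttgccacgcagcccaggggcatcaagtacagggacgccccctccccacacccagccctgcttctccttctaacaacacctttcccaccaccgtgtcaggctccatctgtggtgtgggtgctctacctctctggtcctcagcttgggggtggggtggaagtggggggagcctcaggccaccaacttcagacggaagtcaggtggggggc
Socs3: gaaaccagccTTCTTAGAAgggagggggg
The Socs3 match lay outside GENCODE exons but inside the span that GENCODE gives the gene. The RefSeq start used lay 681 bases inside the GENCODE gene start, and 77 of the 250 window bases lay in GENCODE exons. The bases just after this start were not found in a GENCODE transcript of Socs3. The same held for the window of Jak2 and for most windows of Cntfr. The stretch shown ended 316 bases before the start of the coding transcript. A match describes letters in a window and says nothing of binding. For Osmr the whole RefSeq window lay inside GENCODE exons of the gene, so it is not shown.

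At 5 dpi a single gene of the 10 passed a q of 0.05, the oncostatin M receptor Osmr, which was higher in CDS. The ligand Lif lay above 0 by a similar amount and the ligands Cntf and Clcf1 below 0, none past the threshold. The shared receptors Il6st and Lifr and the inhibitor Socs3 lay close to 0. A q under 0.05 was found for 5.92% of all genes in the authors' deposited table, 2.75% in the higher and 3.18% in the lower direction, so that 1 of 10 is not far from the background. The median log2 fold change of the 10 genes was -0.016, against -0.023 for all genes, in the authors' deposited table. The unadjusted p, recovered from q, was under 0.05 for 4 of the 10 genes (Osmr, Cntf, Lif and Jak2), against 19.1% of all genes.

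**Figure D1:**
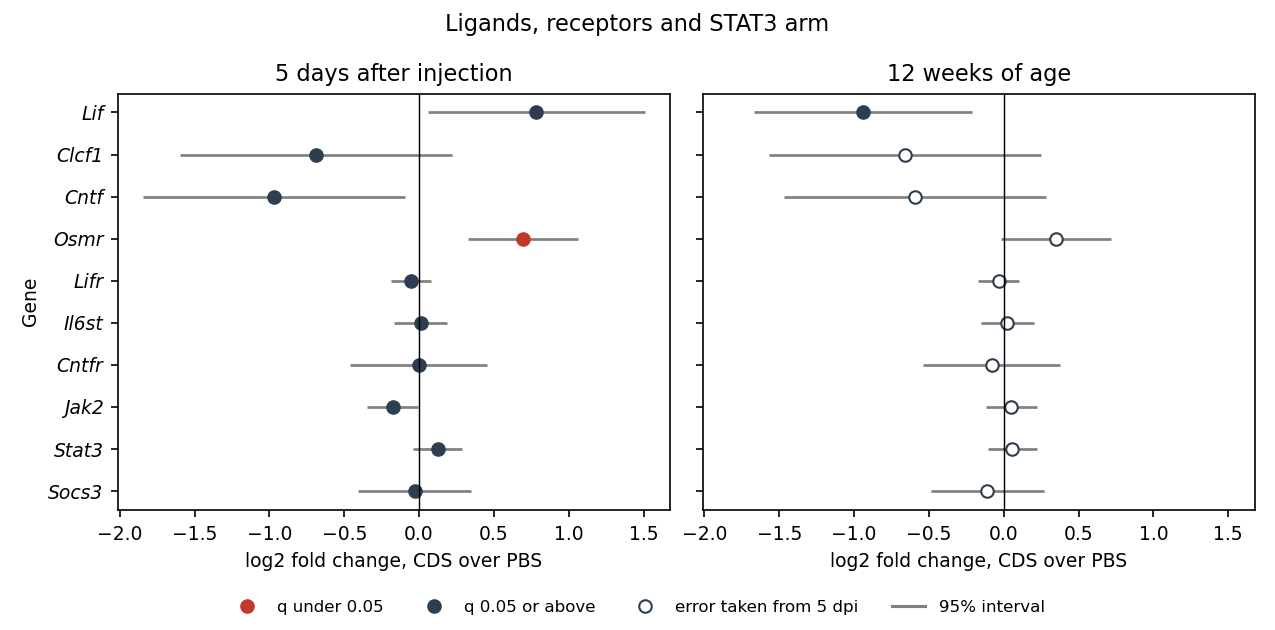
Log2 fold change of CDS over PBS (x axis) for each gene (y axis) at both times, with 95% intervals from implied standard errors; open points use the error of 5 dpi because the 12-week q does not give one. Osmr at 5 dpi (0.69) is the one red point, past a q of 0.05, and Lif lies right of 0 at 5 dpi (0.78) and left of it at 12 weeks (-0.94).

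Among the ligands, Lif, a cytokine made by astrocytes and immune cells after injury (chromosome 11, 4257557 to 4272514, plus strand), stood at 0.78 on the log2 scale, or 1.72-fold, in the authors' deposited table (implied SE 0.37, q = 0.215). Its 95% interval ran from 0.060 to 1.51. The value lay above those of 98.3% of all genes, yet its error was large beside the median implied SE of 0.15 over all genes. Cntf, a survival factor for neurons and glia (chromosome 19, 12763660 to 12765632, minus strand), stood at -0.97 in the authors' deposited table (implied SE 0.45, q = 0.201), with an interval from -1.84 to -0.095. Clcf1, the other ligand of the CNTF receptor (chromosome 19, 4214238 to 4223490, plus strand), stood at -0.69 in the authors' deposited table (implied SE 0.47, q = 0.440), with an interval from -1.60 to 0.22. These 3 ligands carried the largest errors of the 10 genes, all over 0.3, and their directions differed.

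The values of Cntf and Clcf1 depend on how reads of overlapping genes were assigned, which the sources used here do not give. In GENCODE M21, 78.9% of the exon bases of Cntf are shared with Zfp91 on the same strand, whose log2 fold change was -0.10 at 5 dpi and 0.069 at 12 weeks in the authors' deposited table (q = 0.462 and 0.999997). For Clcf1, 8.17% of exon bases are shared with a further gene model on its strand, AC109138.7, which the tables did not list.

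Osmr (chromosome 15, 6813577 to 6874969, minus strand) was the receptor gene of the 4 that passed the threshold. It rose by 0.69 at 5 dpi, or 1.62-fold, in the authors' deposited table (implied SE 0.19, q = 0.00759), with an interval from 0.33 to 1.06. In the same comparison the gp130 gene Il6st (chromosome 13, 112464070 to 112510086, plus strand) stood at 0.012 in the authors' deposited table (implied SE 0.090, q = 0.963). Its interval, from -0.17 to 0.19, reached at most 1.14-fold on the higher side. The LIF receptor gene Lifr (chromosome 15, 7090614 to 7197489, plus strand) stood at -0.053 in the authors' deposited table (implied SE 0.069, q = 0.737), with an interval from -0.19 to 0.082. Cntfr, which encodes the chain that binds CNTF (chromosome 4, 41657498 to 41697089, minus strand), stood at -0.0023 in the authors' deposited table (q = 0.998), with a wider interval from -0.46 to 0.45. The intervals of Il6st and Lifr lay below that of Osmr throughout, while that of Cntfr overlapped it. The differences between receptors were not tested.

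In the STAT3 arm, Jak2, a kinase bound to gp130 (chromosome 19, 29251828 to 29313080, plus strand), stood at -0.18 in the authors' deposited table (implied SE 0.087, q = 0.240). Stat3 itself (chromosome 11, 100885098 to 100939540, minus strand) stood at 0.12 in the authors' deposited table (implied SE 0.084, q = 0.437), with an interval from -0.040 to 0.29, so that a rise of more than 1.22-fold lay outside it. The inhibitor Socs3 (chromosome 11, 117966079 to 117970047, minus strand) stood at -0.030 in the authors' deposited table (implied SE 0.19, q = 0.957). The Socs3 interval, from -0.41 to 0.35, held changes from 0.753-fold to 1.27-fold. None of these 3 genes passed the threshold.

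**Figure D2:**
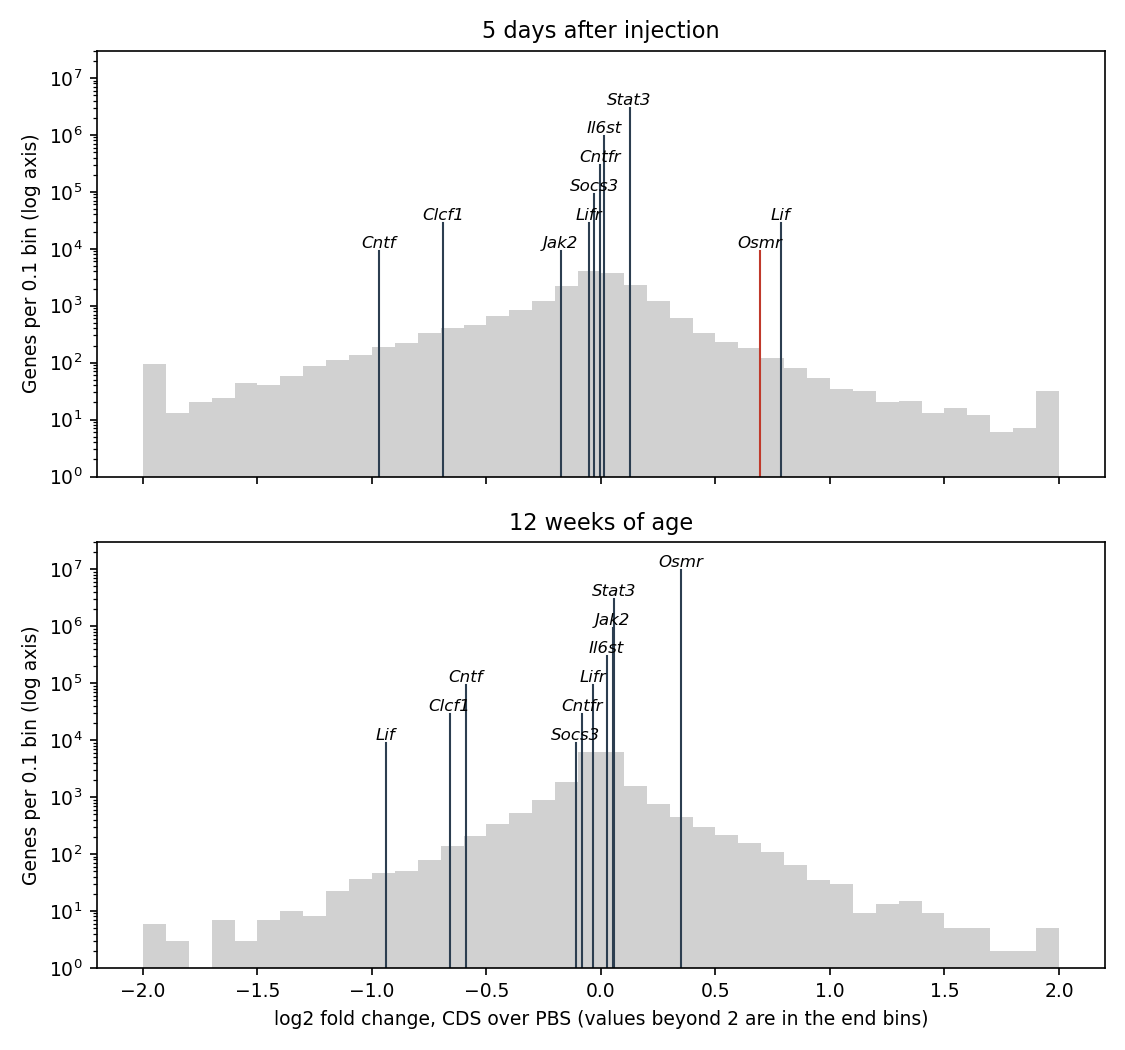
Number of genes per bin of 0.1 in log2 fold change of CDS over PBS (grey, log axis) at each time, with the 10 genes as vertical lines (red, q under 0.05), whose heights only separate the labels. At 5 dpi Lif and Osmr stand in the right tail and Cntf and Clcf1 in the left, while the other 6 lie between -0.18 and 0.12.

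Other genes of the family and its signalling chain were counted from lists by role, also chosen with earlier results known. Of 44 measured genes in 5 lists, 2 rose and 2 fell at 5 dpi, or 9.09% against the 5.92% of all genes that passed, a share near the background. The 44 genes had a median of 0.023 per the authors' deposited table. Of the other ligands, Il6 itself, Ctf2, Il27 and Il31 were not found by symbol and have no value here. Il11, Osm, Ctf1 and Ebi3 did not pass. They ranged from -1.14 for the OSMR ligand Osm to 0.67 for Il11 per the authors' deposited table, with q = 0.215 and 0.442. Of 4 other receptor genes, Il6ra, the chain that binds interleukin-6, fell by 0.75 (implied SE 0.15) per the authors' deposited table (q = 0.000102). Il11ra1, the interleukin-11 receptor chain, rose by 0.28 (implied SE 0.092) per the authors' deposited table (q = 0.0494), just inside the threshold; reads of its near-identical copy Il11ra2 may have been assigned to it. Il27ra and Il31ra did not pass, at 0.25 and -0.61 per the authors' deposited table. Il6ra and Osmr, which pair with the same gp130, moved in opposite directions.

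Downstream, the Janus kinase and STAT genes Jak3, Tyk2, Stat2, Stat4, Stat5a, Stat5b and Stat6 did not pass at 5 dpi, with a range from -0.12 for Stat6 to 0.36 for Stat5a in the authors' deposited table. Jak1, the main kinase of gp130, did not pass either, at 0.0087 (implied SE 0.039) in the authors' deposited table. Of 14 other inhibitors, Pias2, a protein inhibitor of STATs, fell by 0.16 (implied SE 0.042) per the authors' deposited table (q = 0.00542). The median of these 14 was -0.024 in the authors' deposited table, with 9 genes below 0 and 5 above. The lowest was Ptpn6 at -0.26 (q = 0.538) and the highest Socs1 at 0.51 (q = 0.183) in the authors' deposited table. Cish stood at 0.12 (q = 0.796) in the authors' deposited table. Of 12 genes of the SHP2 and MAP kinase arm, which gp130 also feeds, the kinase gene Mapk3 rose by 0.32 (implied SE 0.10) per the authors' deposited table (q = 0.0274).

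A list of 24 measured genes known to be induced through STAT3 held 6 that rose and none that fell at 5 dpi, where 2.75% of all genes rose and 3.18% fell, and its median was 0.21 in the authors' deposited table, against -0.023 for all genes. The filament gene Gfap rose 2.82-fold per the authors' deposited table (implied SE 0.31 on the log2 scale, q = 0.000134). Vim, a second filament gene, rose by 0.98 on the log2 scale per the authors' deposited table (q = 0.0115). The protease inhibitor Serpina3n rose by 1.33 and the adhesion receptor Cd44 by 0.55 per the authors' deposited table (q = 2.57e-05 and 0.0253). The transcription factor Cebpb rose by 0.67 and Birc5, which acts in cell division, by 0.76 per the authors' deposited table (q = 0.0384 and 0.0129). Socs3, the inhibitor that the pathway induces, was not among the genes that passed, and neither were Bcl3, Junb, Pim1 or Myc, which stood at 0.23, 0.027, 0.14 and 0.40 in the authors' deposited table. Of the 24 genes 8 lay below 0, none past the threshold, among them the adhesion molecule Icam1 at -0.47, the interleukin-4 receptor chain Il4ra at -0.31 and the vessel growth factor Vegfa at -0.15 per the authors' deposited table (q = 0.170, 0.185 and 0.0789). Timp1 and Lcn2 had values of 1.13 and 1.23 in the authors' deposited table with implied SEs of 0.58 and 0.87, too loose to pass. The 6 genes that rose are known to respond to other signals too, and which signals acted on them here was not tested. Of the 6, 4 (Gfap, Vim, Serpina3n and Cd44) also belong to the reactive astrocyte list.

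**Figure D3:**
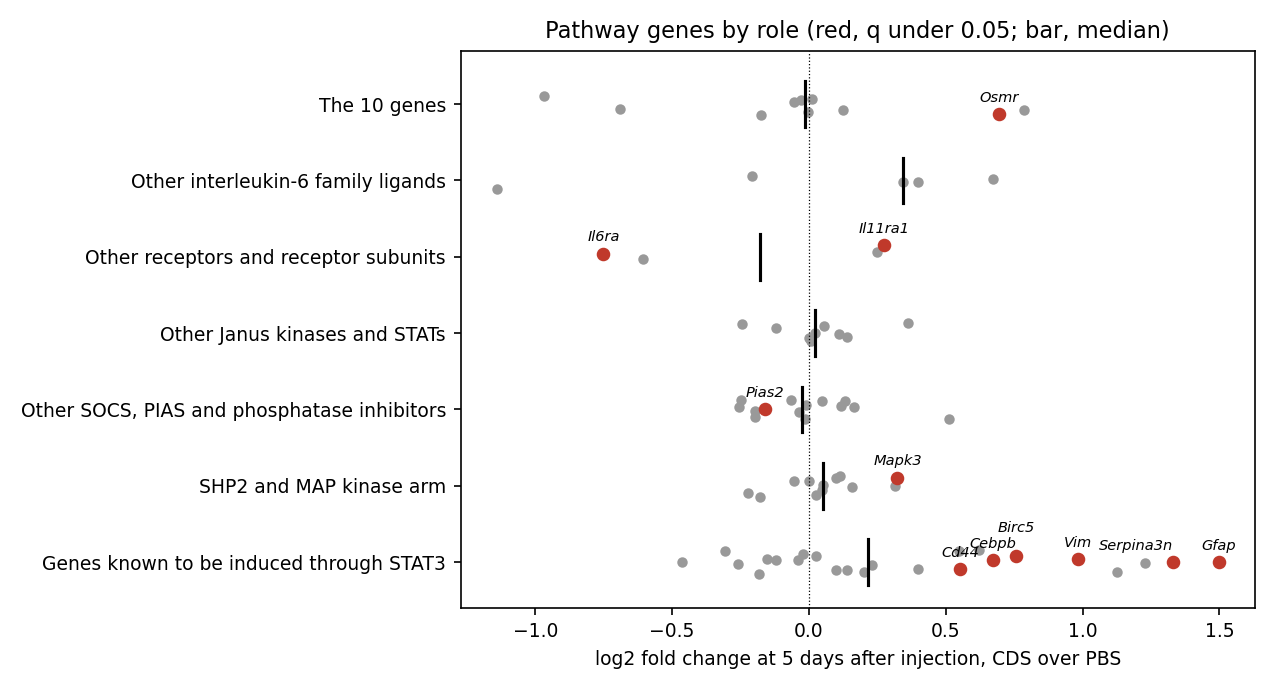
Log2 fold change of CDS over PBS at 5 dpi (x axis) for the 10 genes and 6 lists of other pathway genes (rows); each point is a gene, red past a q of 0.05, and the bar is the list's median. Red points are sparse in the signalling lists, with Il6ra (-0.75) left of 0, and 6 lie between 0.55 and 1.497 in the list of genes induced through STAT3.

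Markers of several cell types moved at 5 dpi beside Osmr and Il6ra; the counts below stand against 2.75% of all genes higher and 3.18% lower, so that 1 called gene in a list this short is near the background. Osmr is itself 1 of 21 measured genes of the reactive astrocyte list, of which 9 rose and 2 fell, with a range from -1.77 to 1.497 around a median of 0.77 per the authors' deposited table. Of 12 general astrocyte markers 2 rose, Gfap and Ntsr2, and the median was 0.0033 in the authors' deposited table. Each of the 20 genes of homeostatic microglia fell, between -2.82 and -0.50, and their median was -1.38 per the authors' deposited table. Of 9 oligodendrocyte precursor genes 8 fell (median -2.09 in the authors' deposited table). Of 10 fibroblast and meninges genes 5 rose and 1 fell, of 9 mural cell genes 2 rose and 1 fell, and of 10 endothelial and 10 myelin genes none passed. The mural gene that fell, Cspg4, is also in the oligodendrocyte precursor list, and 8 of the 9 mural genes lay above 0. All 10 myelin genes lay above 0 as well (median 0.51 in the authors' deposited table). Of the 10 endothelial genes 7 lay below 0 (median -0.033 in the authors' deposited table). Of 12 excitatory neuron genes 1 rose, and of 10 interneuron genes 1 rose and 2 fell. Of 10 border macrophage genes 1 rose and 2 fell, and of 6 measured monocyte and neutrophil genes 2 rose and 1 fell. The part of these cells in the values of Osmr, Il6ra and Lif was not tested, and in bulk tissue fewer cells of a type and less RNA per cell cannot be told apart.

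At 12 weeks none of the 10 genes had a q under 0.05 in the authors' deposited table, where DESeq2, per the submitters' processing notes, gave such a q to 0.191% of all genes. An unadjusted p under 0.05 could be recovered for 1 of the 10, Lif, against 1.33% of all genes, and both are minimums, because the other 9 shared the highest q of 0.999997. The median of the 10 genes was -0.057, against -0.0022 for all genes, in the authors' deposited table. None of the 44 other pathway genes and none of the 24 genes known to be induced through STAT3 passed, and the list medians were 0.015 and 0.099 in the authors' deposited table. Gfap stood at 0.63 and Il6ra at -0.35 in the authors' deposited table. At the same q, 8 of 9 oligodendrocyte precursor genes were lower at 12 weeks (median -0.84 in the authors' deposited table). So was 1 of 20 homeostatic microglia genes (median -0.34 in the authors' deposited table). Among 10 border macrophage genes 2 were lower, and among 10 fibroblast and meninges genes 2 were higher. The part of these cells in the 12-week values was not tested.

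Lif stood at -0.94 at 12 weeks, or 1.92-fold lower, in the authors' deposited table (implied SE 0.37, q = 0.930), with a 95% interval from -1.67 to -0.21. Its recovered unadjusted p was 0.0115 at 12 weeks and 0.0339 at 5 dpi, and neither passed after adjustment. The value at 12 weeks minus that at 5 dpi was -1.72 on the log2 scale (SE 0.52, 95% interval -2.75 to -0.70), a description of a gene chosen with both comparisons known and no test. Lif and Jak2 were the 2 genes of the 10 whose signs differed between times, and Jak2 stood at 0.051 at 12 weeks in the authors' deposited table.

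Osmr stood at 0.35 at 12 weeks in the authors' deposited table (q = 0.999997), above 94.4% of all genes. Its value at 12 weeks minus that at 5 dpi was -0.35, with a 95% interval from -0.86 to 0.17 that takes the 12-week error to equal that of 5 dpi, so that a smaller difference at 12 weeks was not shown. Cntf and Clcf1 stood below 0 again, at -0.59 and -0.66 in the authors' deposited table. The remaining 6 genes lay between -0.11 for Socs3 and 0.057 for Stat3 in the authors' deposited table. With the errors of 5 dpi, the 12-week intervals were -0.15 to 0.20 for Il6st, -0.17 to 0.10 for Lifr and -0.11 to 0.22 for Stat3.

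**Figure D4:**
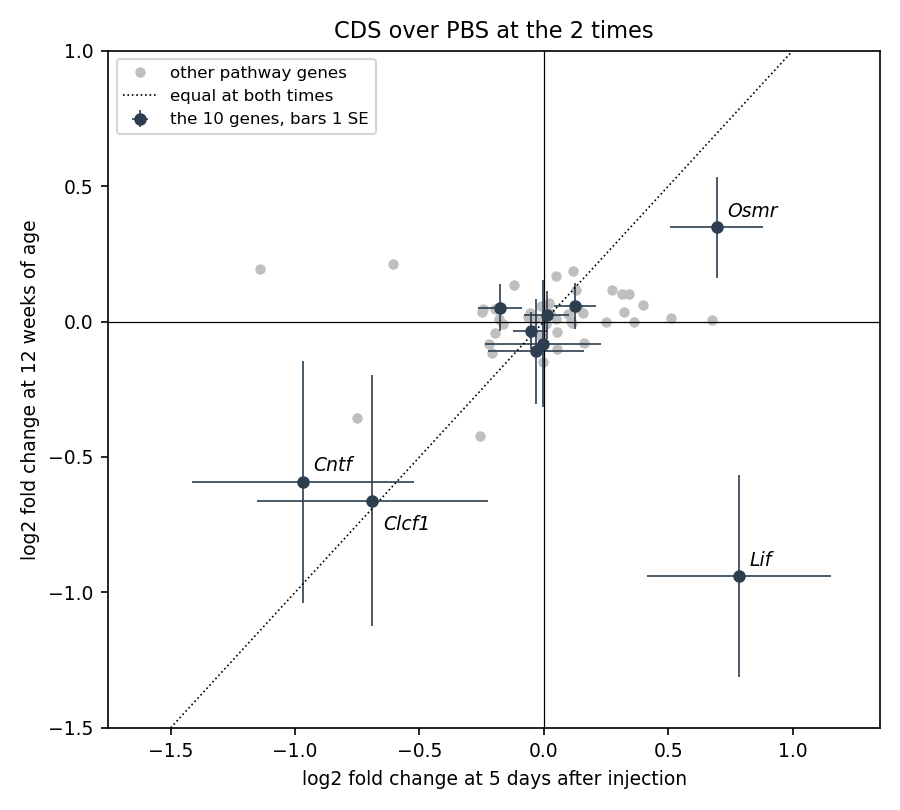
Log2 fold change of CDS over PBS at 5 dpi (x axis) against 12 weeks (y axis) for the 10 genes (dark, bars of 1 implied SE, with the 5 dpi error on both axes where 12 weeks gives none) and 44 other pathway genes (grey). Lif lies far to the lower right (0.78, -0.94), Osmr at upper right (0.69, 0.35), and Cntf and Clcf1 at lower left.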

How the data were processed

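Libraries were made from 400 ng of total RNA with a stranded kit after ribosomal RNA removal, per the labels' protocols. STAR, featureCounts and DESeq2 were used on GRCm38.p5, per the submitters' processing notes; no source used here gives versions, the strand setting or a filter for low genes. The authors deposited 1 table per time with a log2 fold change and a q-value for each of 20375 genes, per the file headers. The number of unused columns of per-sample values was 0.

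Genes were called by the authors' deposited q-value under 0.05, and no new test was run. If q is a Benjamini-Hochberg adjustment over all genes, p is q times rank over 20375; its bounds at 5 dpi were at most 1.04-fold apart. The implied standard error is the log2 fold change over the z of that p, which holds for an unshrunken fold change with a Wald test. At 12 weeks 20103 genes shared the highest q, so that they have no upper bound on p. For the 207 genes with an error at both times the ratio of 12 weeks to 5 dpi was 0.994 (median). These 207 genes all had a low p at 12 weeks, and whether the ratio holds for the genes that shared the highest q was not tested. Coordinates came from GENCODE M21 on GRCm38, and sequences from RefSeq on GRCm38.p6. Python 3.11.15, pandas 2.3.3 and SciPy 1.17.1 were used.

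The 10 genes, the lists and the rule for naming genes (all 10, and list members past the threshold) were chosen with earlier results of these data known. Pathway genes named with values though not past the threshold, apart from the ends of a range and the 10, were singled out with their values in view. Alternatives tried were other thresholds, Bonferroni adjustment, adjustment over protein-coding genes, centring on a median and a longer promoter window. A few listed genes are not reported here by name.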

Additional observations from a re-analysis of the deposited data

How the results depend on the processing

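With Bonferroni adjustment over all genes the count of the 10 genes called at 5 dpi was 0, since Osmr no longer passed; with a q under 0.01 or 0.1, a fold of at least 1.5, or adjustment over protein-coding genes alone it was 1. At 12 weeks the count was 0 under each of these 5 settings. Subtracting the median of all genes turned the sign of Cntfr at 5 dpi (from -0.0023 to 0.020) and of the median of the 10 genes at 5 dpi (to 0.0066); no other sign of the 10 genes changed under the 2 centrings. With a window reaching 50 bases past the start, the share of all promoters with the STAT motif was 8.30%. No paired analysis was possible because per-sample values are not in the files used here, and for the same reason no sample could be left out in turn. The unknown depth limits what the 3 ligands, with their large errors, can show.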
